A study of Bos taurus with 9 samples.

Results

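A set of 8 genes that mark the inner lining of blood vessels was followed across 3 bovine tissues: PECAM1, CDH5, SELE, KDR, TEK, ROBO4, PLVAP and VWF. All probe sets annotated with exactly 1 of these symbols were taken, which gave 13 of the 24016 probe sets that are not controls, and 8 of the 9155 genes with a symbol. PECAM1, CDH5, KDR, PLVAP and VWF had 2 probe sets each, and SELE, TEK and ROBO4 had 1. The tissues were abdominal adipose tissue, subcutaneous adipose tissue and longissimus dorsi muscle, the skeletal muscle along the back, with 3 Affymetrix arrays each. The animals were Yan yellow cattle bulls, 24 months old, untreated and reared alike. The labels count 9 bulls but do not tie samples to animals, so every p-value here measures the spread between these samples. Levels are given as log2 of the deposited intensities. A value under 6, near the middle of each array, is called dim, and the size of a difference from a dim group is not exact.

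Endothelial cells line every vessel and hold together through adhesion proteins at their borders. They answer growth factors through surface receptors such as the VEGF receptors and the angiopoietin receptor, and display selectins when inflamed so that leukocytes can roll and stop. Adipose tissue and skeletal muscle both carry dense capillary networks. In whole tissue, a lower level from fewer endothelial cells and one from less RNA per endothelial cell cannot be told apart.

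The arrays carried their labelled tissues' markers. Leptin, LEP, averaged 10.12 in abdominal fat and 9.81 in subcutaneous fat, against 5.22 in muscle, and all 7 measured adipocyte markers were higher in fat. Fast troponin C, TNNC2, averaged 5.67 and 5.51 in the abdominal and subcutaneous depots and 13.33 in muscle. Of the 7 measured skeletal muscle markers 5 were lower in fat, and CKM and MYH7 were higher by their brightest probe sets. Array medians lay between 5.87 and 5.92 in fat and between 5.75 and 5.79 in muscle. The ratio of 3' to 5' GAPDH control intensities, which rises as RNA breaks down, ran from 1.21 to 1.74 on the fat arrays and from 0.937 to 1.01 on the muscle arrays. For actin it ran from 2.24 to 5.69 in abdominal fat, from 3.86 to 8.17 in subcutaneous fat and from 0.963 to 1.04 in muscle. The part of RNA breakdown in the differences between fat and muscle, and between the depots, was not tested.

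The first comparison set fat, averaged over the depots, against muscle. By their brightest probe sets, 7 of the 8 genes were higher in fat, the exception being VWF. Of these 7, SELE passed against muscle in subcutaneous fat and not in abdominal fat, and KDR was dim on every array. PECAM1, CDH5, TEK, ROBO4 and PLVAP, were bright in both depots and exceeded muscle by 2.22 to 2.93 on the log2 scale. In limma's moderated test, with p-values adjusted over all 24016 probe sets, 10 of the 13 probe sets were higher in fat and 1 was lower, at an adjusted p under 0.05. On the whole array 52.6% of probe sets were called, and 26.2% were higher and 26.4% lower by that rule, so that 49.8% of the calls were higher. With arrays centred on their medians that share was 39.2%, and the median of all probe sets moved to -0.18, against -0.06. The median difference was 2.26 over the 8 genes, against -0.02 over the 9155 genes with a symbol. For 10 of the 13 probe sets the 6 fat arrays and 3 muscle arrays did not overlap, and 44.8% of all probe sets were like this. These were not the same 10 as those called higher. They included the dim second probe sets of KDR and VWF, which were lower in fat. SELE and the second PLVAP probe set were called higher but overlapped.

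**Figure D1:**
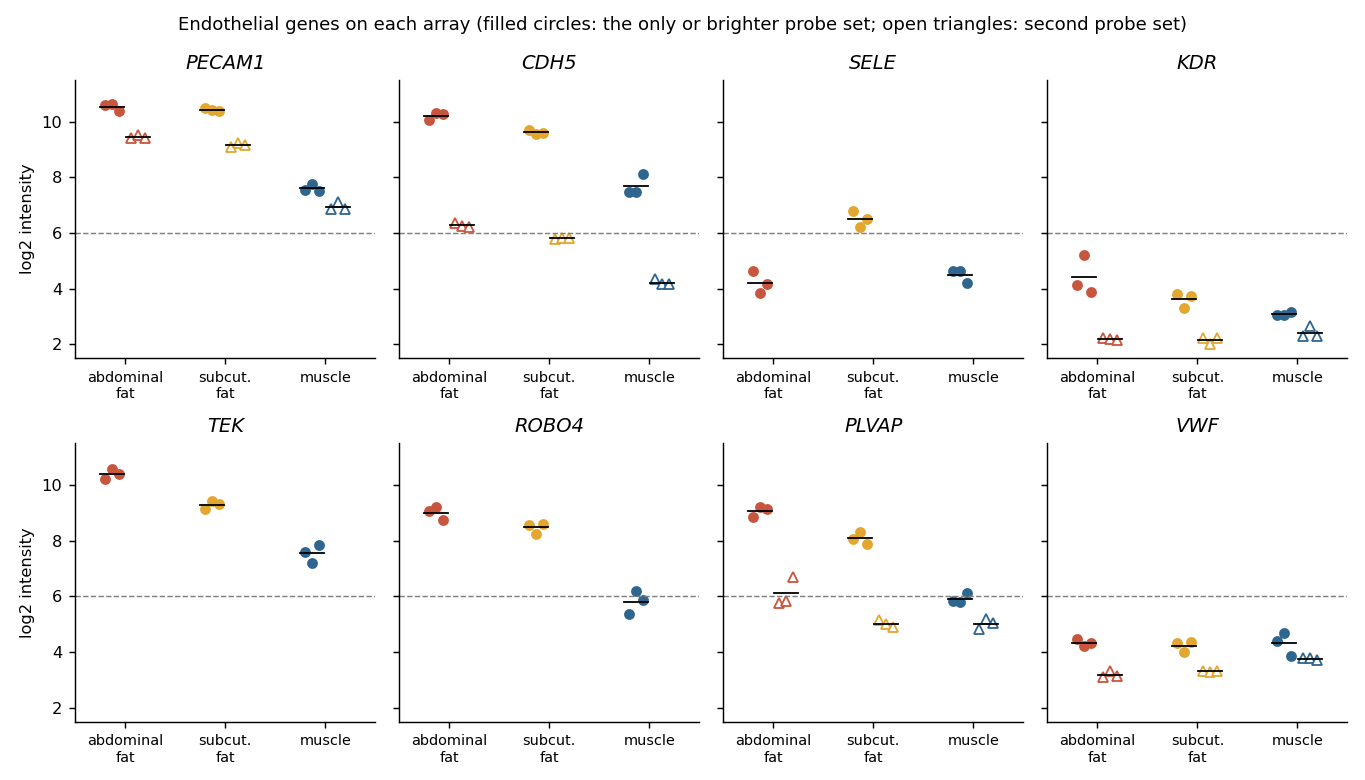
Log2 intensity of each gene on each of the 9 arrays (vertical axis) by tissue, with black bars at the mean of 3 arrays, filled circles for the only or brighter probe set, open triangles for the second, and a dashed line at the dim limit of 6. PECAM1, CDH5, TEK, ROBO4 and PLVAP lie higher in both depots than in muscle, SELE lies over 6 on the subcutaneous arrays alone, and KDR and VWF are dim throughout.

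PECAM1 encodes CD31, an adhesion molecule at endothelial borders that platelets and leukocytes also carry. Its brighter probe set read 10.58, 10.62 and 10.38 in abdominal fat and 10.49, 10.40 and 10.39 in subcutaneous fat, against 7.54, 7.75 and 7.52 in muscle. Every fat array stood above every muscle array, and the depots overlapped. The difference between fat and muscle was 2.87 ± 0.11 (SE, 3 arrays per tissue; limma adjusted p = 4.34e-08), a 7.33-fold higher intensity. The second probe set averaged 9.44 ± 0.06 in abdominal fat and 9.16 ± 0.07 in subcutaneous fat, against 6.95 ± 0.13 in muscle (SD, n = 3 each), a smaller difference of 2.35 ± 0.10. Between the depots PECAM1 differed by 0.10 at the brighter probe set, with a 95% interval from -0.17 to 0.37 and an adjusted p of 0.801 in limma. At the second probe set the depots did not overlap, and abdominal fat was 0.28 above subcutaneous fat (95% interval 0.02 to 0.54), which did not pass after adjustment (0.312).

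CDH5 is VE-cadherin, the cadherin of endothelial adherens junctions. Abdominal fat arrays read 10.05, 10.29 and 10.26 and subcutaneous arrays 9.68, 9.57 and 9.59, against 7.48, 7.49 and 8.10 in muscle. The 3 tissues did not overlap, with abdominal fat highest and muscle lowest. Fat exceeded muscle by 2.22 ± 0.15 (limma adjusted p = 2.02e-06). The second probe set showed the same order at lower values, averaging 6.28 in abdominal fat and 5.81 in subcutaneous fat, against 4.22 in muscle. The step between the depots was 0.59 at one probe set and 0.46 at the other, and neither passed (limma adjusted p = 0.143 and 0.0792), though the arrays of the depots did not overlap at either.

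TEK encodes TIE2, the receptor for angiopoietins, which governs vessel maturation and quiescence. It read 10.20, 10.57 and 10.38 in abdominal fat and 9.15, 9.41 and 9.31 in subcutaneous fat, against 7.58, 7.20 and 7.84 in muscle. All 3 tissues were separate. Abdominal fat was 7.18-fold above muscle, by 2.84 ± 0.18 on the log2 scale, and subcutaneous fat 3.37-fold, by 1.75 ± 0.18 (SE; limma adjusted p = 2.03e-06 and 3.57e-05).

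ROBO4 is the Roundabout receptor of endothelium, with a role in keeping vessels stable. Abdominal fat gave 9.06, 9.21 and 8.73 and subcutaneous fat 8.56, 8.25 and 8.61, against 5.38, 6.18 and 5.87 in muscle. It had the largest difference between fat and muscle among the 8 genes, 2.93 ± 0.19 (limma adjusted p = 1.3e-06). Its muscle mean was dim at 5.81, so this size is not exact. The depots did not overlap, with a difference of 0.53 (95% interval 0.05 to 1.01) that did not pass (limma adjusted p = 0.29).

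PLVAP forms the diaphragms of endothelial fenestrae and caveolae. The brighter probe set read 8.85, 9.19 and 9.12 in abdominal fat and 8.05, 8.32 and 7.86 in subcutaneous fat, against 5.82, 5.79 and 6.11 in muscle. As with TEK, the 3 tissues did not overlap. Abdominal fat lay 3.15 ± 0.16 above muscle and subcutaneous fat 2.17 ± 0.16 (limma adjusted p = 5.77e-07 and 5.2e-06), with muscle at the dim limit, at a mean of 5.91. The second PLVAP probe set was dim on 8 of 9 arrays and did not show the same pattern. It averaged 6.11 ± 0.52 in abdominal fat and 5.02 ± 0.12 in subcutaneous fat, against 5.02 ± 0.17 in muscle (SD, n = 3 each). Abdominal fat passed against muscle (1.09, limma adjusted p = 0.00346), and subcutaneous fat did not (-0.0008, 95% interval -0.52 to 0.51, adjusted p = 0.998). Its difference for both depots together, 0.54 (limma adjusted p = 0.0432), was lost without any 1 of muscle replicates 1, 2 and 3 (0.151, 0.0585 and 0.0849) or subcutaneous replicates 1, 2 and 3 (0.0806, 0.0685 and 0.055). Centring each array on its median also ended it (0.0909).

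KDR, the main signalling receptor for VEGFA, was dim on every array, so the array gives little on it. Its brighter probe set read 4.14, 5.22 and 3.87 in abdominal fat and 3.80, 3.32 and 3.73 in subcutaneous fat, against 3.07, 3.05 and 3.18 in muscle. Abdominal replicate 2 stood apart from the other abdominal arrays. The difference between fat and muscle was 0.91 ± 0.26 (limma adjusted p = 0.0146), and it was lost when 16 was added to each intensity (0.417, adjusted p = 0.0653). The second KDR probe set lay between 2.03 and 2.66 on all arrays and did not pass (-0.24, limma adjusted p = 0.109).

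VWF, the clotting glycoprotein that endothelial cells store in Weibel-Palade bodies, was dim as well. One probe set read 4.46, 4.22 and 4.31 in abdominal fat and 4.31, 4.00 and 4.35 in subcutaneous fat, against 4.40, 4.67 and 3.87 in muscle. The tissues overlapped, and the difference was -0.04 with a 95% interval from -0.42 to 0.35 (limma adjusted p = 0.866). The other read 3.11 to 3.32 in abdominal fat, 3.30 to 3.31 in subcutaneous fat and 3.70 to 3.78 in muscle, and was 0.50 lower in fat (-0.50 ± 0.10, limma adjusted p = 0.00149). Both lie under the dim limit, and no absence of VWF is read from them.

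**Figure D2:**
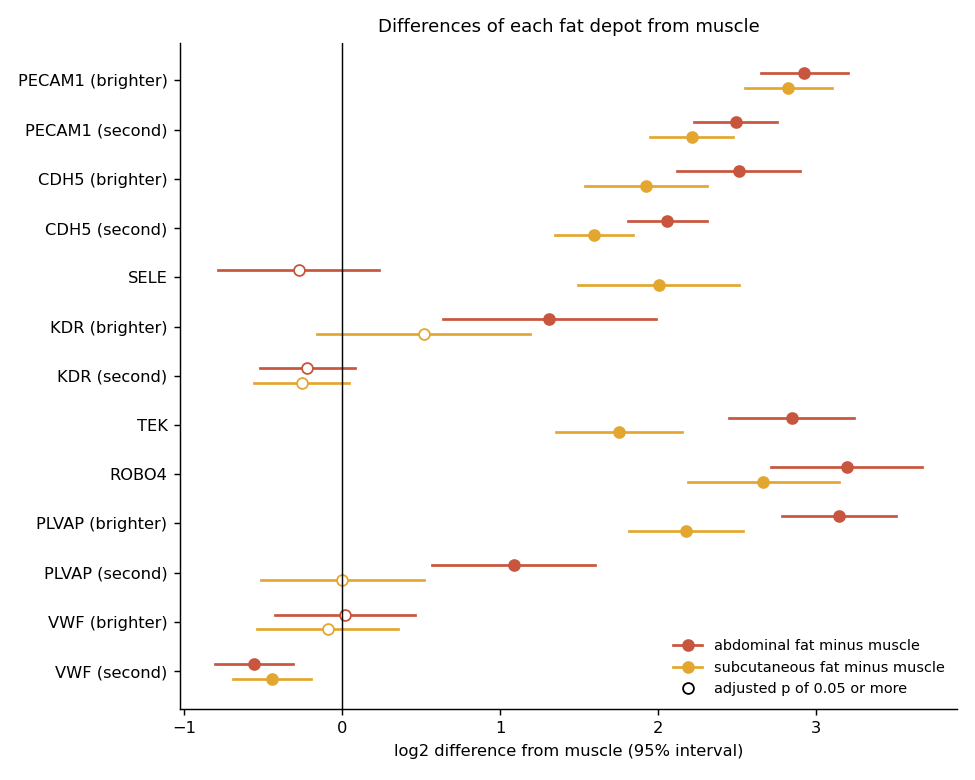
Log2 difference of abdominal fat minus muscle and of subcutaneous fat minus muscle for the 13 probe sets, with 95% intervals from limma and open circles where the adjusted p was 0.05 or more. SELE is the gene whose depots part most, at -0.28 for abdominal and 2.002 for subcutaneous fat.

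Each depot was also set against muscle by itself, with the muscle arrays shared by both comparisons. In abdominal fat 9 of the 13 probe sets were higher than in muscle and 1 lower, where 46.6% of all probe sets were called, 23.5% higher and 23.1% lower. In subcutaneous fat 8 were higher and 1 lower, where 47.0% were called, 24.6% higher and 22.4% lower. The lower probe set was the dim VWF one in both. KDR passed in abdominal fat (1.31, limma adjusted p = 0.00546), and in subcutaneous fat it differed by 0.52 (adjusted p = 0.189). That call was gained without abdominal replicate 2 (0.515, adjusted p = 0.0282) and when the abdominal arrays were kept out of the fit (adjusted p = 0.0377).

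SELE, E-selectin, which activated endothelium shows to catch passing leukocytes, had a profile unlike the other genes. It read 4.65, 3.85 and 4.16 in abdominal fat and 6.79, 6.20 and 6.51 in subcutaneous fat, against 4.65, 4.62 and 4.22 in muscle. The 3 subcutaneous arrays were over the dim limit and above all 6 others, while abdominal fat and muscle overlapped. Subcutaneous fat exceeded muscle by 2.002 ± 0.23 (limma adjusted p = 7.39e-05), and abdominal fat differed from muscle by -0.28 (95% interval -0.79 to 0.23, adjusted p = 0.349). Over both depots together the difference from muscle was 0.86 (adjusted p = 0.00466), with overlapping arrays. With abdominal fat and muscle both dim, the sizes are not exact.

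The second comparison asked how abdominal fat differed from subcutaneous fat, which is also the test of whether the depots differ from muscle unequally. SELE was lower in abdominal fat by a wide margin, and TEK and PLVAP were higher there. Of the 13 probe sets, 2 were higher in abdominal fat and 1 was lower in limma at an adjusted p under 0.05, where 1.31% of all probe sets were called, 0.641% higher and 0.666% lower. The abdominal and subcutaneous arrays did not overlap at 9 of the 13, against 23.6% of all probe sets. The median difference was 0.56 over the 8 genes and -0.04 over the 9155 genes with a symbol.

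**Figure D3:**
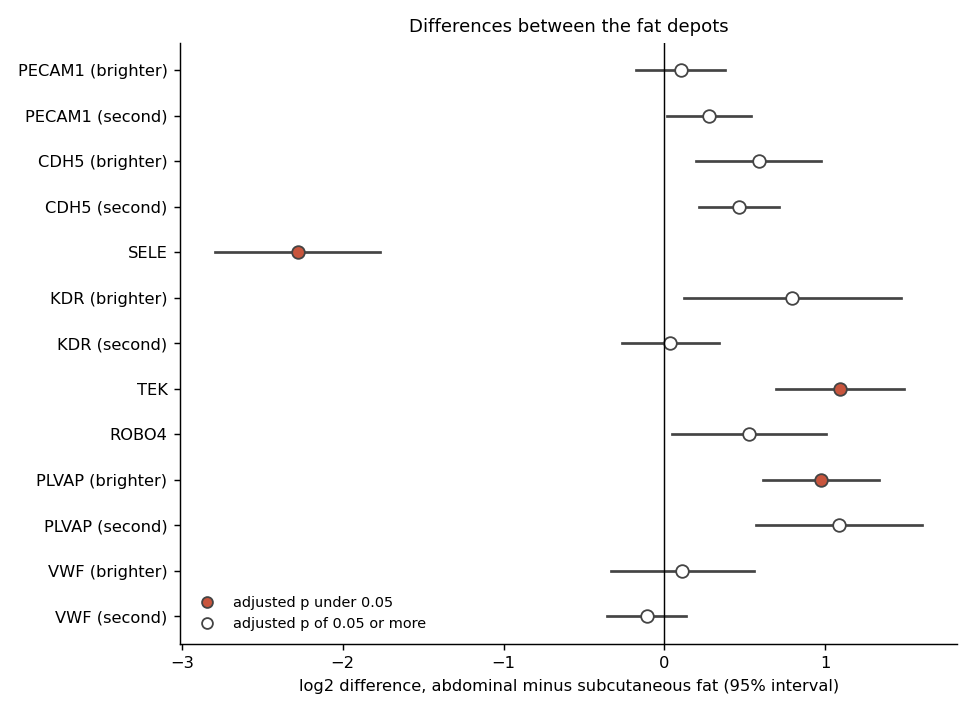
Log2 difference, abdominal minus subcutaneous fat, for the 13 probe sets with 95% intervals from limma, filled where the adjusted p was under 0.05. SELE lies at -2.28, TEK and the brighter PLVAP probe set lie near 1, and the PECAM1 probe sets lie at 0.10 and 0.28.

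The SELE difference was -2.28 ± 0.23 (SE, 3 arrays per depot; limma adjusted p = 0.00426). Its call held without each array in turn, between -2.50 and -2.09 (adjusted p from 0.00359 to 0.0285). TEK was 1.09 ± 0.18 higher in abdominal fat (2.13-fold) and PLVAP 0.97 ± 0.16 (1.96-fold), both with an adjusted p of 0.0293 in limma. These calls were close to the threshold. TEK lost its call without any 1 of the 6 fat arrays or muscle replicate 1, with differences of 0.998 to 1.184 and adjusted p from 0.0505 to 0.0925, and kept it without muscle replicate 2 or 3. PLVAP lost it without abdominal replicate 2 (0.904, adjusted p = 0.0969) or 3 (0.940, 0.0965), subcutaneous replicate 1 (0.959, 0.0910) or 3 (0.864, 0.0891), or muscle replicate 1 (0.973, 0.0505). The second PLVAP probe set gave 1.09 (adjusted p = 0.0572).

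**Figure D4:**
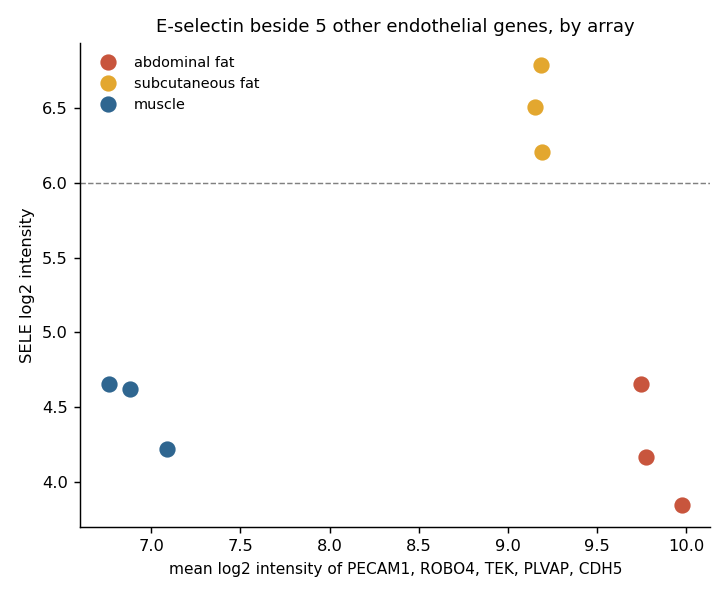
SELE log2 intensity (vertical axis) against the mean log2 intensity of PECAM1, ROBO4, TEK, PLVAP and CDH5 (horizontal axis) on each of the 9 arrays, with a dashed line at the dim limit. Subcutaneous arrays hold the highest SELE values at 9.15 to 9.19 on the horizontal axis, below the abdominal arrays at 9.75 to 9.98.

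Within fat, SELE and the mean of the 5 bright endothelial genes differed in opposite directions. That mean was 9.75, 9.98 and 9.77 on the abdominal arrays, 9.19, 9.19 and 9.15 on the subcutaneous arrays, and 6.76, 6.88 and 7.09 in muscle. Taken relative to it on the same array, SELE stood at -5.10, -6.13 and -5.61 in abdominal fat, at -2.40, -2.99 and -2.64 in subcutaneous fat, and at -2.11, -2.26 and -2.87 in muscle. SELE itself was dim on every abdominal and muscle array. Its relative values there are not exact and largely follow the mean of the 5 genes, so muscle and subcutaneous fat cannot be ranked by them. Across the 9 arrays the 5 bright genes followed each other closely, with Pearson correlations from 0.916 (PECAM1 with TEK) to 0.99 (TEK with PLVAP). SELE had correlations of -0.011 to 0.364 with them. These describe 9 arrays that share the gap between fat and muscle. The 5 genes were picked as those over 6 on at least 6 arrays, a rule that favours genes bright in fat. Their likeness to each other across the 9 arrays, and SELE's lack of it, are therefore descriptions only.

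The genes with the most similar profiles over the 9 arrays were sought among all named genes outside the 8, by Pearson correlation. These correlations share the differences between the tissues, so they are descriptions without a p-value. For TEK they were NOTCH4, an endothelial Notch receptor (r = 0.9945), MTMR11 (0.9917) and RHOB (0.9911). For PLVAP they were F11R, a junctional adhesion molecule (0.9917), ACVRL1, an endothelial receptor of the TGF-beta family (0.991), and NRROS (0.9908). CDH5 was closest to IGFBP3 (0.9966), NRROS (0.9941) and ADGRG1 (0.9931), PECAM1 to NSDHL (0.9971), IRF9 (0.995) and PSEN2 (0.995), and ROBO4 to MPZL3 (0.9952), ABHD6 (0.9925) and CNTLN (0.9924). SELE was closest to NUPR2 (0.9783), which averaged 8.97 in abdominal fat and 10.21 in subcutaneous fat, against 9.15 in muscle. Next came CHRNA3 (0.9612), with dim means in every tissue, and the homeobox gene IRX3 (0.9525). For the dim KDR the nearest were SLC44A2 (0.9516), TYW1 (0.944) and PLA1A (0.94), and for VWF they were GFPT1 (0.9173), TST (0.9038) and SLC25A34 (0.8809). Of these, TYW1, PLA1A and GFPT1 also had dim means in every tissue.

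Genes that act with these receptors were described through lists of ligands, partners and regulators. The list counts are to be read against the 26.2% of all probe sets that were higher in fat and the 26.4% that were lower. Those shares cover every probe set, with or without a symbol, while the lists count each gene by its brightest probe set. The match is therefore loose. Among other junction and adhesion genes, 15 of 16 measured were higher in fat than in muscle and none was lower, with a median of 1.86. MCAM, an adhesion molecule of endothelium and pericytes, differed by 3.48, the integrin ligands ICAM1 and VCAM1 by 2.90 and 2.85, and the TGF-beta co-receptor ENG by 2.51. The tight junction protein CLDN5 (2.37), P-selectin, SELP (2.02), and the phosphatase PTPRB (1.76), which acts on TIE2 and VE-cadherin, were also higher. SELPLG, the selectin ligand on leukocytes, differed by -0.21 and did not pass (limma adjusted p = 0.124). In 3 of 16 alternative settings it passed as lower in fat, among them arrays centred on their medians (limma adjusted p = 0.0245).

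**Figure D5:**
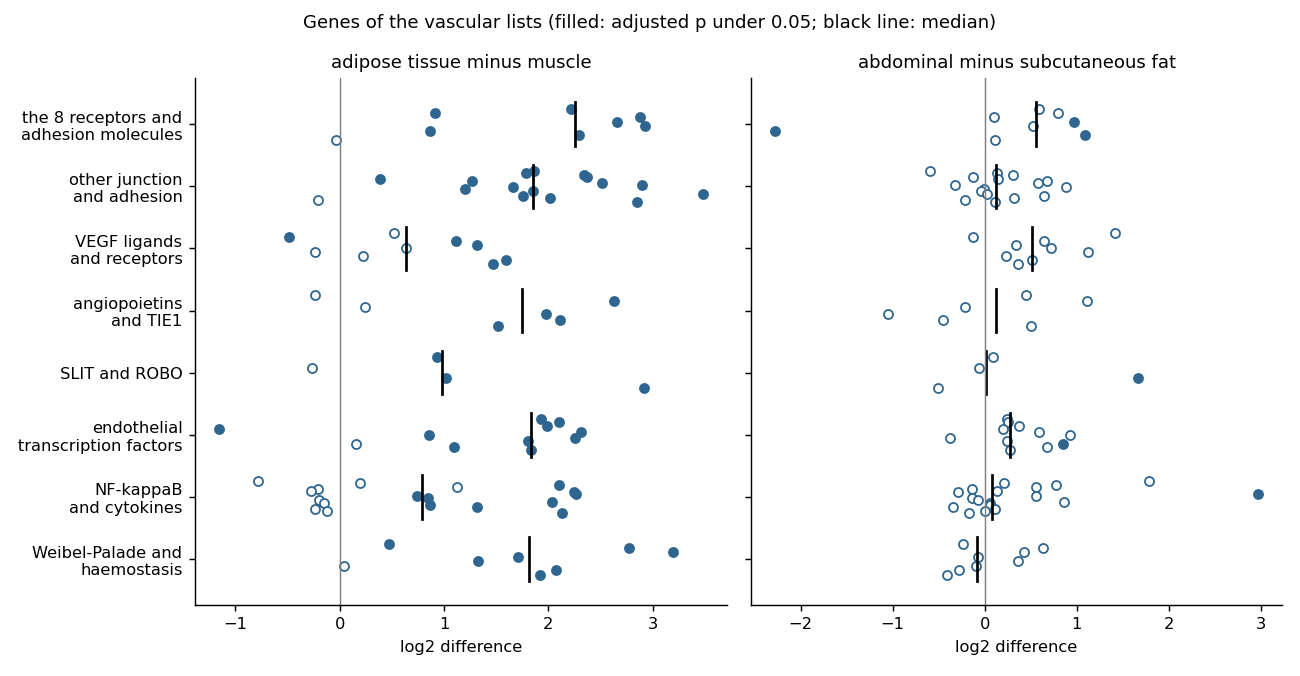
Log2 differences of the genes of each vascular list, adipose tissue minus muscle on the left and abdominal minus subcutaneous fat on the right, 1 point per gene by its brightest probe set, filled where the limma adjusted p was under 0.05, with a black line at the list's median. Medians lie above 0 in every list on the left, and in the right panel SLIT2, LMO2 and IL6 are the passing genes outside the 8.

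Ligands gave a less even picture. In the VEGF list 4 of 9 genes were higher in fat and 1 lower, with a median of 0.63. VEGFC (1.60), VEGFD (1.47) and the co-receptors NRP2 (1.32) and NRP1 (1.11) were higher, and the dim FLT4, a lymphatic VEGF receptor, was lower (-0.48). The second probe sets of VEGFD (0.05) and NRP2 (-0.22) did not pass. NRP1 passed in abdominal fat (1.43, limma adjusted p = 0.00406) and not in subcutaneous fat (0.79, 0.0608). VEGFA itself, the KDR ligand, averaged 9.54 in abdominal fat and 8.42 in subcutaneous fat, against 9.22 in muscle, and differed by -0.24 (limma adjusted p = 0.491). Its second probe set, dim on average in every tissue, went the other way, by 0.52 (adjusted p = 0.0579). There abdominal fat passed against muscle (0.80, adjusted p = 0.0205) and subcutaneous fat did not (0.24, 0.432). FLT1, the other VEGFA receptor, differed by 0.52 (adjusted p = 0.109) at its bright probe set, and its other 2 probe sets were dim in every tissue. At the bright one abdominal fat passed against muscle (1.23, limma adjusted p = 0.00645) and subcutaneous fat did not (-0.19, 0.629). In the angiopoietin list 4 of 6 were higher and none lower, with a median of 1.75. ANGPT2, the context-dependent TIE2 ligand that endothelium releases, was 2.63 higher, from a dim muscle mean of 5.06, with ANGPTL4 at 2.11, ANGPTL2 at 1.98 and the receptor TIE1 at 1.52. The TIE2 agonist ANGPT1 was dim on average in every tissue and differed by -0.24 (adjusted p = 0.548). In the SLIT and ROBO list 3 of 4 were higher, SLIT3 by 2.91, SLIT2 by 1.02 and ROBO1 by 0.93, with a median of 0.98, all from dim muscle means. The second SLIT3 probe set also passed, at a smaller 1.27. SLIT2 differed from muscle by 1.85 in abdominal fat, and by 0.19 in subcutaneous fat, which did not pass (limma adjusted p = 0.65).

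Regulators and secreted products were counted in the same way. Of 11 endothelial transcription factors measured, 9 were higher in fat and ETS2 was lower (-1.15), with a median of 1.83. Higher members included the ETS factors FLI1 (2.32), ERG (2.10) and ETS1 (1.99), and the homeobox factor HHEX (2.25). The second ERG probe set, dim on average in every tissue, also passed, at a smaller 0.52. In the list of Weibel-Palade contents and haemostasis 7 of 8 were higher and none lower, with a median of 1.82: tissue plasminogen activator, PLAT (3.19), endothelin 1, EDN1 (2.77), the inhibitor TFPI (2.07) and thrombomodulin, THBD (1.92). In the list of cytokines and NF-kappaB genes, which includes the inducers of E-selectin, 9 of 18 were higher and none lower, with a median of 0.79. The inducers TNF, IL1A and IL1B were not among the higher genes. At their only or brightest probe sets they had dim means in every tissue. They differed by -0.12, -0.21 and -0.28 and did not pass (limma adjusted p = 0.559, 0.139 and 0.141). IL6 (2.26), the receptors IL1R1 (2.25) and TNFRSF1A (2.13) and the chemokine CCL2 (2.10) were higher. IL6 was so in abdominal fat (3.75) and did not pass in subcutaneous fat, where its mean was dim (0.78, limma adjusted p = 0.111). CCL2 passed narrowly in subcutaneous fat (1.72, limma adjusted p = 0.0481), and that call held in 5 of 17 alternative settings. Across the lists, muscle means were also dim for SELP, VEGFD, NRP2, TIE1, HHEX, PLAT, TFPI, IL1R1 and IL6. The sizes of their differences from muscle are not exact. From these lists, only genes named for a large difference, for the smallest p or as direct partners were recomputed under the alternative settings. None of them lost its call for the averaged depots against muscle. The other listed genes, FLT4, ETS2, TNF, IL1A and IL1B among them, were not recomputed, so the list counts were not tested in this way.

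Between the depots few of these partners passed. SLIT2 was 1.66 higher in abdominal fat (limma adjusted p = 0.0416), reading 7.46, 6.05 and 7.19 in abdominal fat and 5.35, 5.45 and 4.92 in subcutaneous fat. LMO2, a partner of endothelial and blood transcription factors, was 0.85 higher (adjusted p = 0.0323), and its second probe set did not pass (0.63, adjusted p = 0.155). Both calls were lost without any 1 of 7 arrays. For SLIT2 the exceptions were abdominal replicate 2 and muscle replicate 3, with lost values of 1.379 to 1.767 (adjusted p 0.0523 to 0.136). For LMO2 they were muscle replicates 2 and 3, with lost values of 0.778 to 0.943 (0.0518 to 0.108). IL6 was 2.97 higher in abdominal fat (adjusted p = 0.00955), the opposite direction to SELE, and read 7.56, 6.46 and 7.38 in abdominal fat and 4.06, 4.92 and 3.50 in subcutaneous fat. Markers of mesothelium, the lining of the abdominal cavity, were likewise lowest in abdominal replicate 2 among the abdominal arrays. MSLN read 6.32, 4.39 and 6.41, UPK3B 7.17, 5.53 and 6.33, and KRT19 8.16, 5.38 and 7.26 in abdominal fat. Their differences between abdominal and subcutaneous fat had a median of 1.06 and none passed, and their part in the SLIT2 and IL6 values was not tested. The junctional adhesion molecule JAM2 was 0.88 higher in abdominal fat at its brighter probe set, which did not pass (limma adjusted p = 0.0698), and 0.93 higher at its second, which did (0.0293). Among the TIE2 and VEGF partners, ANGPT2 differed by 1.11 (adjusted p = 0.0721), FLT1 by 1.42 (0.0523) and VEGFA by 1.12 (0.127), and none of these passed. Of 17 alternative settings, FLT1 gained a call in 7, ANGPT2 in 4 and VEGFA in 3. The other adhesion molecules of inflamed endothelium differed by -0.32 for ICAM1 (adjusted p = 0.568), 0.11 for VCAM1 (0.938) and 0.32 for SELP (0.703).

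Markers of other cell types moved with the contrast between fat and muscle as well, and their part in the endothelial values was not tested. All 7 macrophage markers were higher in fat, with array means of 9.07 to 10.26 in fat and 6.79 to 7.80 in muscle. Of 9 pericyte and smooth muscle markers 6 were higher and 1 lower, with array means of 8.43 to 9.46 in fat and 8.55 to 8.73 in muscle. The lower one was DES, which averaged 13.07 in muscle, 9.04 in abdominal fat and 8.71 in subcutaneous fat. It lifts the muscle means of this list, so their overlap with fat does not show level pericyte signal. Of 4 lymphatic markers 2 were higher and 1 lower, LYVE1 by 3.34, and of 6 fibroblast markers 5 were higher. The pan-leukocyte gene PTPRC was 1.62 higher, while the lymphocyte genes CD3E, CD3D, CD2, MS4A1 and CD79A had dim means in every tissue and did not pass. NKG7, of natural killer and cytotoxic T cells, also dim on average in every tissue, was higher in fat by 0.48 (limma adjusted p = 0.0404). Both measured platelet markers had dim means in every tissue, with ITGA2B differing by -0.26 (limma adjusted p = 0.139) and PF4 higher in fat by 1.04, and 4 of 5 red cell genes were lower in fat. Between the depots no marker of these lists, nor of the adipocyte, muscle and mesothelial lists, passed.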

How the data were processed

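Labelled RNA from 9 samples, 3 of each tissue, was hybridised to a 1-colour Affymetrix bovine array. The deposited values are linear intensities from 3.06 to 17450.5. The submitters' processing notes name RMA without a version or settings. The log2 was taken, with no further scaling or filter, and 112 control probe sets were left out. Symbols came from the array annotation, updated through the gene identifier: 13292 probe sets had 1 symbol, 86 several and 10638 none. The probe set with the highest mean stood for a gene in counts of genes.

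All 9 arrays entered 1 linear model with a mean per tissue in limma 3.58.1 in R 4.3.3 (lmFit, eBayes; 6 residual and 3.752 prior degrees of freedom). Tests were two-sided and adjusted by Benjamini-Hochberg over 24016 probe sets, with a threshold of 0.05, and the procedure was tested on simulated data. The number of arrays limits the precision. From each list, up to 4 passing genes with the largest difference between fat and muscle and up to 3 between depots were named, or that with the smallest p, and 19 direct partners, of which CTNND1, UNC5B, ADAMTS13 and F8 had no probe set with 1 symbol. FLT4, ETS2, TNF, IL1A, IL1B and marker genes of other cell types named outside this rule were chosen after their values were seen. The members and lists were chosen with earlier results of these data known. Alternatives were the prior variance, a filter on dim probe sets, median centring, quantile scaling, array weights, the arrays in the fit, the leading title number as a block, a pseudocount of 16, and leaving out each array. Sequences and genome positions were not used here. Tables were written with pandas 2.3.3 and plots drawn with matplotlib 3.10.9 (Python 3.11.15).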

Additional observations from a re-analysis of the deposited data

Results flagged for a closer look

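The depots' differences from muscle were unequal for SELE, TEK and PLVAP, by the test of abdominal minus subcutaneous fat in limma. SELE differed from muscle by -0.28 in abdominal and by 2.002 in subcutaneous fat, and between the depots by -2.28. TEK differed from muscle by 2.84 in abdominal and by 1.75 in subcutaneous fat, and between the depots by 1.09. PLVAP, at its brighter probe set, differed from muscle by 3.15 in abdominal and by 2.17 in subcutaneous fat, and between the depots by 0.97. The search for a single array far from its group was not made, since each tissue has 3 arrays.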

How the results depend on the processing

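Over 17 alternative settings, 801 of 851 recomputed values of the 13 probe sets kept their direction and side of the threshold, 23 lost and 9 gained a call, and 18 changed sign, none of them with a call. Counts of calls for fat and for each depot against muscle stayed within 1.5 times their value, from 8977 to 14165 probe sets for fat (12628) and 8 to 11 of the 13 (11). Those of abdominal minus subcutaneous fat moved further. With array weights 1034 probe sets were called, 6 of them of the 8 genes, against 314 and 3. With the leading title number as a replicate block 118 and 1 were called, TEK (1.18, limma adjusted p = 0.0881), PLVAP (0.94, 0.12), IL6 (2.65, 0.0526), LMO2 (0.87, 0.0702) and SLIT2 (1.43, 0.148) losing theirs. Leaving out each array gave 57 to 491 and 1 to 4. The cause was not tested. Same-numbered samples had correlated deviations of 0.0431 to 0.3617, others of -0.3242 to 0.1698, highest for the abdominal and subcutaneous samples of a number (0.3304 and 0.3617). Muscle replicate 3 correlated best with another number, and the labels do not say what the numbers mark, so they were not taken as pairs.

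The brighter VWF probe set changed sign for fat minus muscle with quantile scaling (0.066), for abdominal minus muscle with array weights (-0.028), centring (-0.098) and the replicate block (-0.053), and for subcutaneous minus muscle with quantile scaling (0.0078). The second PLVAP probe set did so for subcutaneous minus muscle with array weights (0.072) and quantile scaling (0.017). Without single arrays, VWF ranged from -0.26 to 0.14 for fat, -0.20 to 0.20 for abdominal and -0.31 to 0.085 for subcutaneous fat against muscle, and the second PLVAP probe set from -0.089 to 0.080 for subcutaneous fat. ANGPT1 ranged from -0.73 to 0.08 for fat and -0.51 to 0.31 for abdominal fat, VEGFA from -0.49 to 0.19 for fat, and FLT1 from -0.56 to 0.14 for subcutaneous fat, against muscle. For abdominal minus subcutaneous fat, the ranges were -0.029 to 0.070 for the second KDR probe set, -0.13 to 1.25 for CCL2, -0.29 to 0.065 for CLDN5, -0.24 to 0.23 for MCAM, -0.067 to 0.26 for ROBO1, -0.55 to 0.063 for TFPI and -0.20 to 0.47 for VCAM1. Signal over background limits KDR, VWF, the second PLVAP probe set and SELE outside subcutaneous fat.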
